A study of Arabidopsis thaliana with 10 samples.

Results

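AT5G62360, MSRB6 and ECS1 are 3 Arabidopsis thaliana genes, each read by 1 of the 22746 probe sets tested, whose array signal differed strongly between ΔC26 and ΔC27, a pair of lines with the same truncated transgene. They were selected on these same arrays, by the measured difference between ΔC26 and ΔC27. The levels in ΔC26 and ΔC27 are therefore given as a description without a test, and tests of the 3 genes are confined to FL3 against the controls and VC against Col-0. AT5G62360 is predicted to encode an inhibitor of invertase or pectin methylesterase. MSRB6 encodes a methionine sulfoxide reductase of the B type, and ECS1 a protein associated with the cell wall.

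RNA of 5 lines was hybridised to 10 Affymetrix arrays, 2 per line, described by the submitters as independent biological replicates. FL3 carries full-length TaSIN. ΔC26 and ΔC27 are separate lines carrying TaSIN without its transmembrane motif. All 3 express the transgene constitutively, from a promoter not named in the sources used here. VC, which carries the vector without an insert, and Col-0 wild type served as controls, with 4 arrays between them. All plants were whole seedlings of 12 days grown without stress in long days. FL3 is 1 line, and ΔC26 and ΔC27 are 1 line each. Between FL3 and a truncated line, or against the controls, effects of the insertion and of the transgene cannot be told apart. ΔC26 and ΔC27 share the transgene form, and between them insertion, transgene level and other differences of the lines cannot be told apart.

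Pectin is a main polysaccharide of the growing cell wall. Pectin methylesterases remove methyl groups from it and alter its stiffness. Small inhibitor proteins bind and block either these enzymes or the invertases, which break down sucrose. Methionine residues are oxidised by reactive oxygen species, and methionine sulfoxide reductases return them to methionine. The B type acts on the R form of methionine sulfoxide and the A type on the S form.

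The median intensity of an array was 41.7 at the lowest and 44.2 at the highest. The SD of the log2 difference between replicate arrays ran from 0.206 in FL3 to 0.415 in ΔC27, which makes ΔC27 the line with the widest replicate spread. The 4 measured photosynthesis markers (LHCB4.1, RCA, PSAE-1 and PSBY, of 8 listed) summed to 15754 to 15906 in FL3, 17721 to 19883 in ΔC26 and 12407 to 13373 in ΔC27, against 14617 to 17487 in the controls. Their sum was thus above all control arrays in ΔC26 and below all in ΔC27, but only PSAE-1 followed it in full. LHCB4.1 had 5088 and 5575 in ΔC26, not above its control arrays of 5170 to 5817. In ΔC27 RCA had 4453 and 4394, inside its control range of 4160 to 5493. PSBY had 1663 and 2065 in ΔC27, the second inside its control range of 1862 to 2454. The 2 measured root markers (EXPA18 and EXPA7, of 8 listed) summed to 21.5 to 35.9 in FL3, 41.7 to 88.4 in ΔC26 and 40.0 to 65.9 in ΔC27, against 25.5 to 38.7 in the controls. Both were dim, at 16.7 to 23.5 for EXPA18 and 7.55 to 15.2 for EXPA7 in the control arrays, where 34.8% of all values fall below 16. Their replicates also differed, with EXPA7 at 14.0 and 34.4 in ΔC26 and 11.4 and 28.8 in ΔC27. The part of leaf and root tissue in the results below was not tested, and in whole seedlings fewer cells of a type and less RNA per cell cannot be told apart. Of the seed and flower markers, 0 of 5 and 0 of 4 had a named probe set. No probe set was named for TaSIN, so the transgene itself was not measured.

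AT5G62360, the predicted inhibitor, had its highest signal in ΔC26. Its intensity was 52.7 and 67.4 in the FL3 arrays, 605 and 509 in ΔC26 and 64.1 and 39.9 in ΔC27, against 183 and 197 in VC and 148 and 67.7 in Col-0. Both ΔC26 arrays lay above every other array, and both ΔC27 arrays below all 4 control arrays. The ΔC27 margin was narrow, since the higher ΔC27 array had 64.1 and the lowest control array 67.7. The mean was 557 ± 67.7 in ΔC26 and 52.0 ± 17.1 in ΔC27 (SD, n = 2 each), a ratio of 10.7. Against the mean of the controls, 149 ± 58.0 (SD, n = 4), ΔC26 was 3.74 times as high, while the controls were 2.87 times as high as ΔC27. On the scale of log2(intensity + 16), which understates changes of dim genes, ΔC26 minus ΔC27 was 3.09 ± 0.29 (SE). The control level was itself spread, because Col-0 replicate 2 lay far below the other 3 control arrays.

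MSRB6, the reductase, showed the same order of lines at lower signal. Its intensity was 29.3 and 18.5 in FL3, 287 and 198 in ΔC26 and 16.4 and 11.8 in ΔC27, against 48.2 and 59.3 in VC and 41.4 and 36.0 in Col-0. The arrays of any pair of lines did not overlap. The mean was 242 ± 62.7 in ΔC26 and 14.1 ± 3.28 in ΔC27 (SD, n = 2 each), a ratio of 17.2. ΔC26 was 5.25 times the control mean of 46.2 ± 10.02 (SD, n = 4), and the controls were 3.28 times ΔC27. The ΔC27 values lie near the pseudocount of 16, where 34.8% of all values on the arrays fall below it, so the ratio on the low side is imprecise. On the log2 scale ΔC26 minus ΔC27 was 3.09 ± 0.21 (SE).

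ECS1, the wall-associated protein gene, did not move in opposite directions. Its intensity was 4935 and 2941 in FL3, 4817 and 4345 in ΔC26 and 565 and 893 in ΔC27, against 3195 and 4514 in VC and 6185 and 5834 in Col-0. Both ΔC26 arrays lay inside the control range, and both ΔC27 arrays were far below all other arrays. The mean was 4581 ± 334 in ΔC26 and 729 ± 232 in ΔC27 (SD, n = 2 each), a ratio of 6.29. ΔC26 was 0.929 times the control mean of 4932 ± 1363 (SD, n = 4), and the controls were 6.77 times ΔC27. On the log2 scale ΔC26 minus ΔC27 was 2.66 ± 0.28 (SE), ΔC26 minus controls -0.06 ± 0.24 and ΔC27 minus controls -2.72 ± 0.24. Thus AT5G62360 and MSRB6 lay on opposite sides of the controls in ΔC26 and ΔC27, and ECS1 was low in ΔC27 alone.

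**Figure D1:**
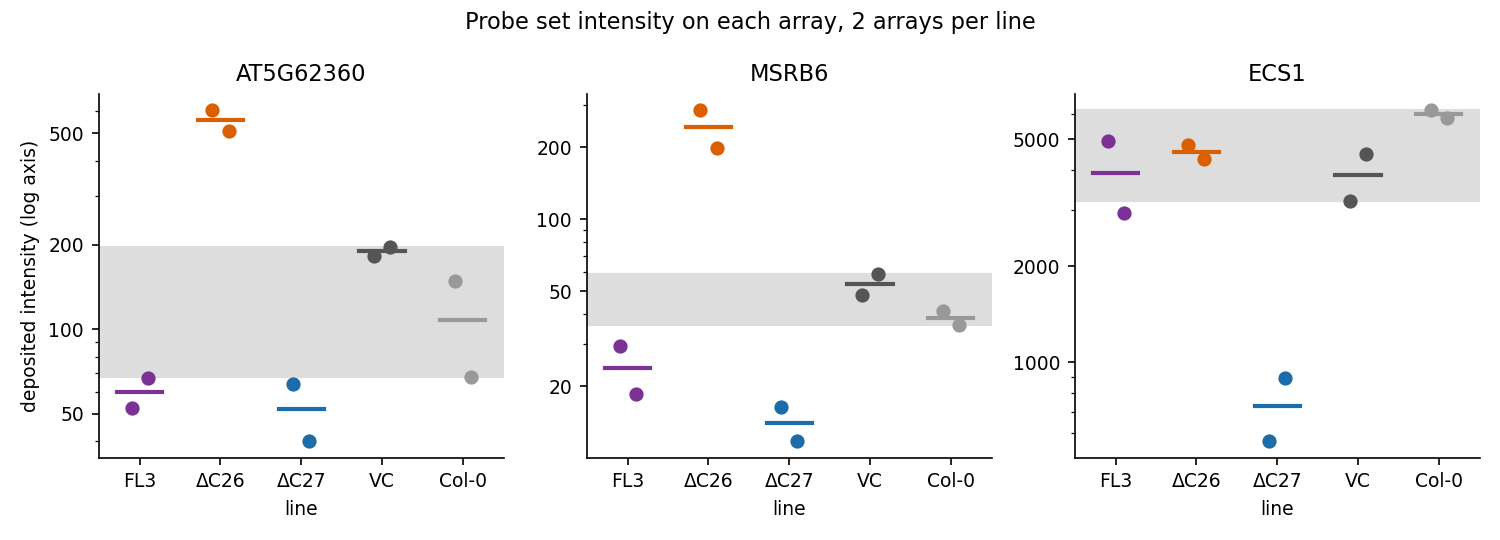
Intensity of AT5G62360, MSRB6 and ECS1 in each of the 10 arrays (log axis), with a point per array and a bar at the mean of the 2 arrays of a line. AT5G62360 and MSRB6 are highest in ΔC26 and at their lowest in ΔC27 and FL3, and ECS1 is low in ΔC27, at 565 and 893.

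For AT5G62360 and MSRB6 the lines fell in the same order by mean, ΔC27, FL3, Col-0, VC and ΔC26 from low to high. In AT5G62360 the neighbours ΔC27 and FL3 overlapped, at 52.0 ± 17.1 and 60.0 ± 10.4 (SD, n = 2 each). Col-0, at 108 ± 57.1 (SD, n = 2), had a spread wider than its distance from FL3. In MSRB6 the means were 14.1 in ΔC27, 23.9 in FL3, 38.7 in Col-0, 53.7 in VC and 242 in ΔC26. The order in ECS1 was ΔC27, VC, FL3, ΔC26 and Col-0, at 729, 3854, 3938, 4581 and 6010. Its middle 3 lines overlapped.

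Among all 22746 probe sets the difference ΔC26 minus ΔC27 of AT5G62360, MSRB6 and ECS1 ranked 3, 4 and 10 by size. In that contrast 670 probe sets (2.95%) passed limma's test at a Benjamini-Hochberg adjusted p under 0.05, 483 higher and 187 lower in ΔC26. As the 3 genes were chosen by that difference, nothing is read from their place. Both ΔC26 arrays above and both ΔC27 arrays below all 4 control arrays was a pattern found in 181 probe sets (0.796%), where AT5G62360 and MSRB6 had places 2 and 3 by size of the difference. The reverse pattern was found in 56 probe sets (0.246%). ECS1 had neither.

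**Figure D2:**
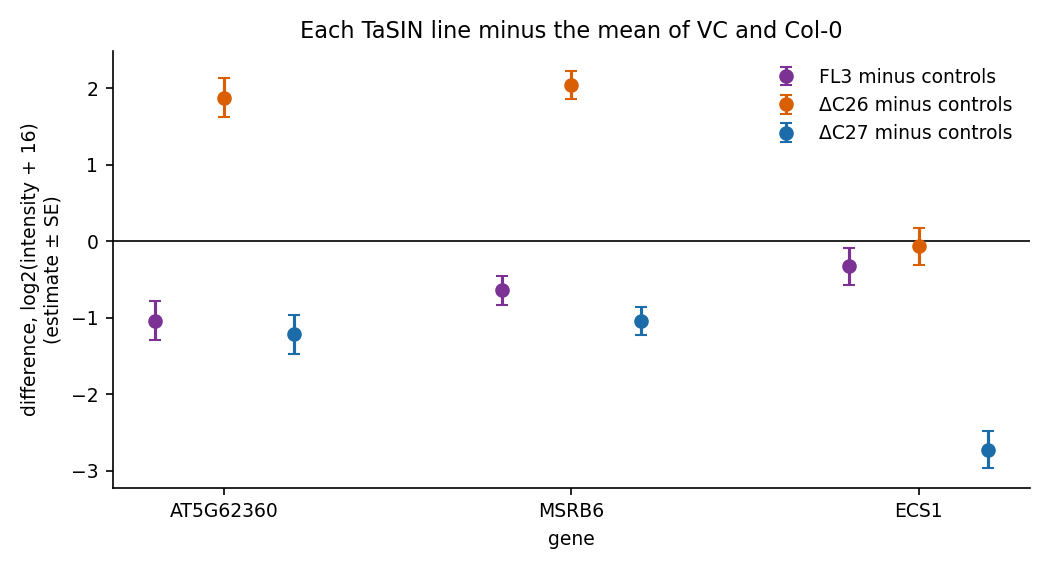
Differences of FL3, ΔC26 and ΔC27 from the controls on the scale of log2(intensity + 16) for AT5G62360, MSRB6 and ECS1, with points at the estimate and error bars of 1 SE. AT5G62360 and MSRB6 stand above 0 in ΔC26, at 1.88 and 2.05, and below 0 in ΔC27, and ECS1 is near 0 in ΔC26 and at -2.72 in ΔC27.

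FL3, whose arrays the choice of genes did not use, had low levels of AT5G62360 and MSRB6 on both arrays, without a call. The test is not wholly apart from that choice, in which the control arrays took part. Its spread was also estimated from all 10 arrays, ΔC26 and ΔC27 included. AT5G62360 averaged 60.0 ± 10.4 in FL3 (SD, n = 2) and 149 ± 58.0 in the controls (SD, n = 4), a log2 difference of -1.04 ± 0.25 (SE, 95% interval -1.61 to -0.47, limma, Benjamini-Hochberg adjusted p = 0.073). MSRB6 averaged 23.9 ± 7.70 in FL3 and 46.2 ± 10.02 in the controls, a log2 difference of -0.64 ± 0.19 (95% interval -1.06 to -0.22, limma, adjusted p = 0.13). ECS1 averaged 3938 ± 1409 in FL3 and 4932 ± 1363 in the controls, a log2 difference of -0.32 ± 0.24 (95% interval -0.86 to 0.22, limma, adjusted p = 0.67). By limma 0 of the 3 genes passed, where 611 of all probe sets (2.69%) did. An unadjusted p under 0.05 was found for 2 of the 3, and for 13.2% of all probe sets. Both FL3 arrays lay below all 4 control arrays in AT5G62360 and MSRB6, a pattern found in 11.6% of all probe sets. In AT5G62360 this margin was 67.4 in FL3 against 67.7 in Col-0 replicate 2. Without that Col-0 array the log2 difference of AT5G62360 was -1.28 and passed (limma, adjusted p = 0.023), as it did without ΔC27 replicate 1 or 2 (adjusted p = 0.041 each), and against VC alone (-1.44, adjusted p = 0.044). Against Col-0 alone it was -0.63 and did not pass (adjusted p = 0.41). For ECS1 the sign turned without FL3 replicate 2 (0.047) or against VC alone (0.0048), while it was -0.65 against Col-0 alone.

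The 2 controls were compared as a measure of the spread between lines without TaSIN. In VC minus Col-0 the log2 difference was 0.81 ± 0.29 for AT5G62360 (95% interval 0.15 to 1.47), 0.35 ± 0.21 for MSRB6 (-0.13 to 0.83) and -0.66 ± 0.28 for ECS1 (-1.28 to -0.04). By limma 0 of the 3 passed, with adjusted p of 0.61, 0.81 and 0.70, and 2 had an unadjusted p under 0.05. Of all probe sets 6 passed (0.0264%), and 7.01% had an unadjusted p under 0.05. The difference between control lines in AT5G62360 depended on the Col-0 arrays: it was 0.32 when Col-0 replicate 2 was left out and 1.30 when replicate 1 was.

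Genes with the most similar profiles were named by Pearson's r over 10 arrays, on the log2 scale, among 2036 probe sets with a single gene, a mean of at least 5 and a range of at least 1. These arrays are 2 per line and share the processing. They include the arrays of ΔC26 and ΔC27, and AT5G62360, MSRB6 and ECS1 were chosen by the difference between those lines. A high r between chosen genes, and similar genes that differ between ΔC26 and ΔC27, can follow in part from that choice. The value of r is therefore a description, and shared regulation was not tested. AT5G62360 and MSRB6 correlated at 0.959, while ECS1 correlated with them at 0.458 and 0.520. The 5 genes most like AT5G62360 were AT1G51805 (r = 0.970), AT5G62350 (0.967), AT2G43550 (0.966), MSRB6 (0.959) and AT3G51450 (0.952). Those most like MSRB6 were AT4G24350 (0.969), AT5G62360 (0.959), AT3G51450 (0.947), AT2G43550 (0.939) and AT4G30650 (0.931). AT2G43550 and AT3G51450 were in both lists.

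AT3G51450 had 72.3 and 83.7 in FL3, 438 and 571 in ΔC26 and 91.4 and 53.1 in ΔC27, against 131 and 165 in VC and 87.3 and 71.2 in Col-0. Its ΔC26 arrays were the highest of all, and its ΔC27 arrays overlapped those of Col-0. AT4G24350, the most like MSRB6, had 13.7 and 13.3 in FL3, 61.2 and 36.3 in ΔC26 and 10.7 and 11.7 in ΔC27, against 19.4 and 24.8 in VC and 17.3 and 13.1 in Col-0. It lay above the controls in ΔC26 and below them in ΔC27, at low signal. ECS1 shared 0 of its 5 with either of the other members. Its most similar were AT1G49750 (r = 0.985), AT2G32160 (0.979), AT2G25510 (0.977), AT3G08890 (0.963) and AT3G57800 (0.960). AT2G25510 had 5641 and 3808 in FL3, 5574 and 5897 in ΔC26 and 634 and 1653 in ΔC27, against 5267 and 5793 in VC and 6567 and 7156 in Col-0. Its low arrays were those of ΔC27, as in ECS1.

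**Figure D3:**
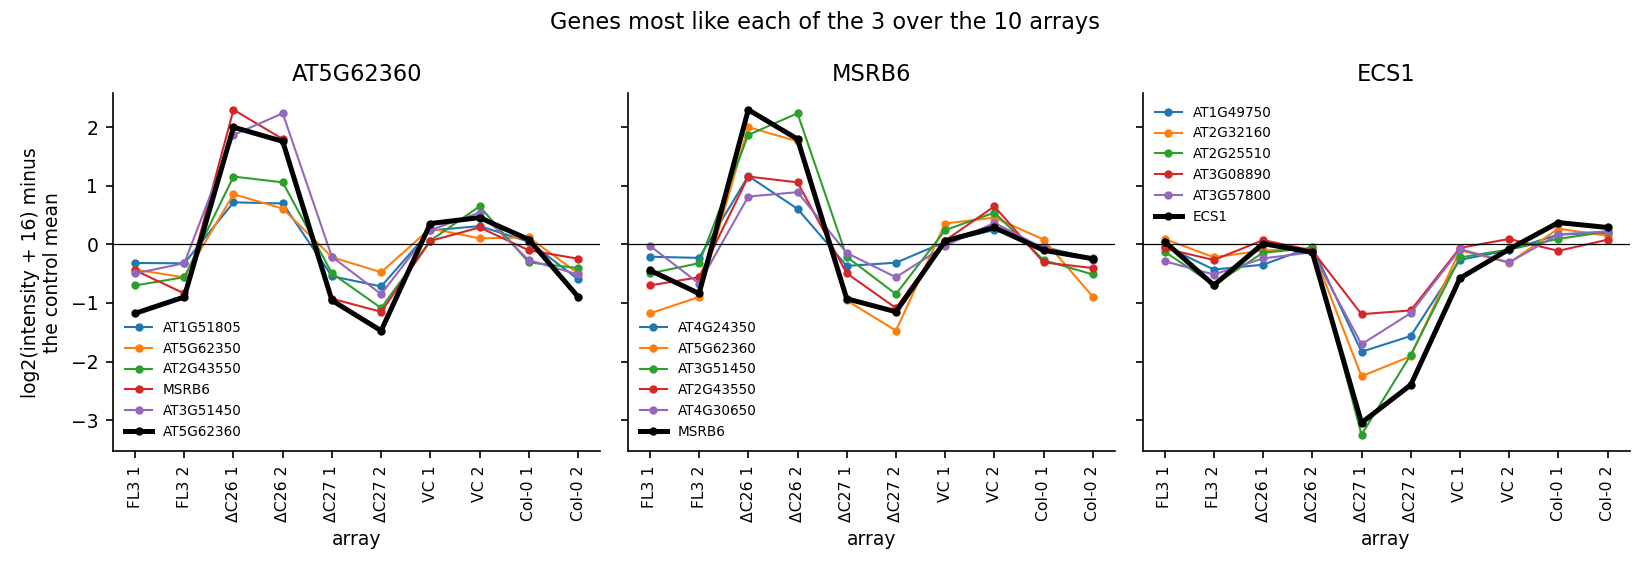
Level on each of the 10 arrays minus the mean of the controls, on the scale of log2(intensity + 16), of AT5G62360, MSRB6 and ECS1 and of the 5 genes most similar to each. The genes like AT5G62360 and MSRB6 are at their highest in ΔC26, and those like ECS1 are at their lowest in ΔC27.

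The nearest measured genes on the chromosome, 3 on each side of each member, gave 18 neighbours, of which 9 had a mean intensity of at least 16. Only genes with a probe set annotated with them alone were taken, so nearer genes without one were passed over. The farthest, AT4G04940, was 15 places from MSRB6 in the gene order. The other 9, 5 of them beside ECS1, had means under 16, where the pseudocount compresses a log2 difference. Of the 18, 2 passed in ΔC26 against ΔC27, both higher in ΔC26, and the median difference was 0.029 (limma, 2.95% of all probe sets). AT5G62350, which the gene order places next to AT5G62360 and which is listed in the same inhibitor family, had 780 and 709 in FL3, 1925 and 1622 in ΔC26 and 905 and 755 in ΔC27, against 1280 and 1135 in VC and 1149 and 746 in Col-0. Its ΔC26 arrays were above all others, and its ΔC27 arrays overlapped Col-0. Its log2 difference was 1.08 ± 0.20 in ΔC26 minus ΔC27 (limma, adjusted p = 0.025), and 0.73 ± 0.17 in ΔC26 minus controls, which did not pass (adjusted p = 0.060). That call ended without either FL3 array or either ΔC26 array (adjusted p from 0.0502 to 0.089).

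AT1G31550, the fifth gene before ECS1 in the order, had 84.9 and 71.8 in FL3, 150 and 167 in ΔC26 and 43.4 and 47.3 in ΔC27, against 101 and 128 in VC and 126 and 128 in Col-0. Its ΔC26 arrays were above and its ΔC27 arrays below all controls. The log2 difference was 1.51 ± 0.16 in ΔC26 minus ΔC27 and -1.15 ± 0.14 in ΔC27 minus controls (limma, adjusted p = 0.0031 and 0.00093), and both passed under every alternative and left-out array tried. MSRB5, another B-type reductase near MSRB6, had 372 and 333 in FL3, 559 and 490 in ΔC26 and 335 and 348 in ΔC27, against 314 and 285 in VC and 375 and 467 in Col-0. Its difference of 0.60 ± 0.15 between ΔC26 and ΔC27 did not pass (limma, adjusted p = 0.063). In ΔC27 against the controls 2 of the 18 neighbours passed, where 16.7% of all probe sets did. They were AT1G31550 and AT5G62440, and AT5G62440 was higher by 0.74 ± 0.18 (adjusted p = 0.022). AT5G62440 had 98.4 and 98.6 in FL3, 95.4 and 77.1 in ΔC26 and 119 and 86.9 in ΔC27. Its control arrays had 40.6 to 64.7, below every TaSIN array. Its differences of 0.70 in FL3 and 0.53 in ΔC26 did not pass (limma, adjusted p = 0.091 and 0.16), nor did ΔC26 minus ΔC27, at -0.21 (adjusted p = 0.67). The call of AT5G62440 ended without VC replicate 1, Col-0 replicate 1 or ΔC27 replicate 1. By limma 0 of 18 neighbours passed in FL3 or in ΔC26 against the controls, where 2.69% and 2.71% of all probe sets did. An unadjusted p under 0.05 was found for 4 and 5 neighbours, and for 13.2% and 18.3% of all probe sets. For VC against Col-0 the counts were 0 and 1, where 0.0264% of all probe sets passed and 7.01% had an unadjusted p under 0.05.

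**Figure D4:**
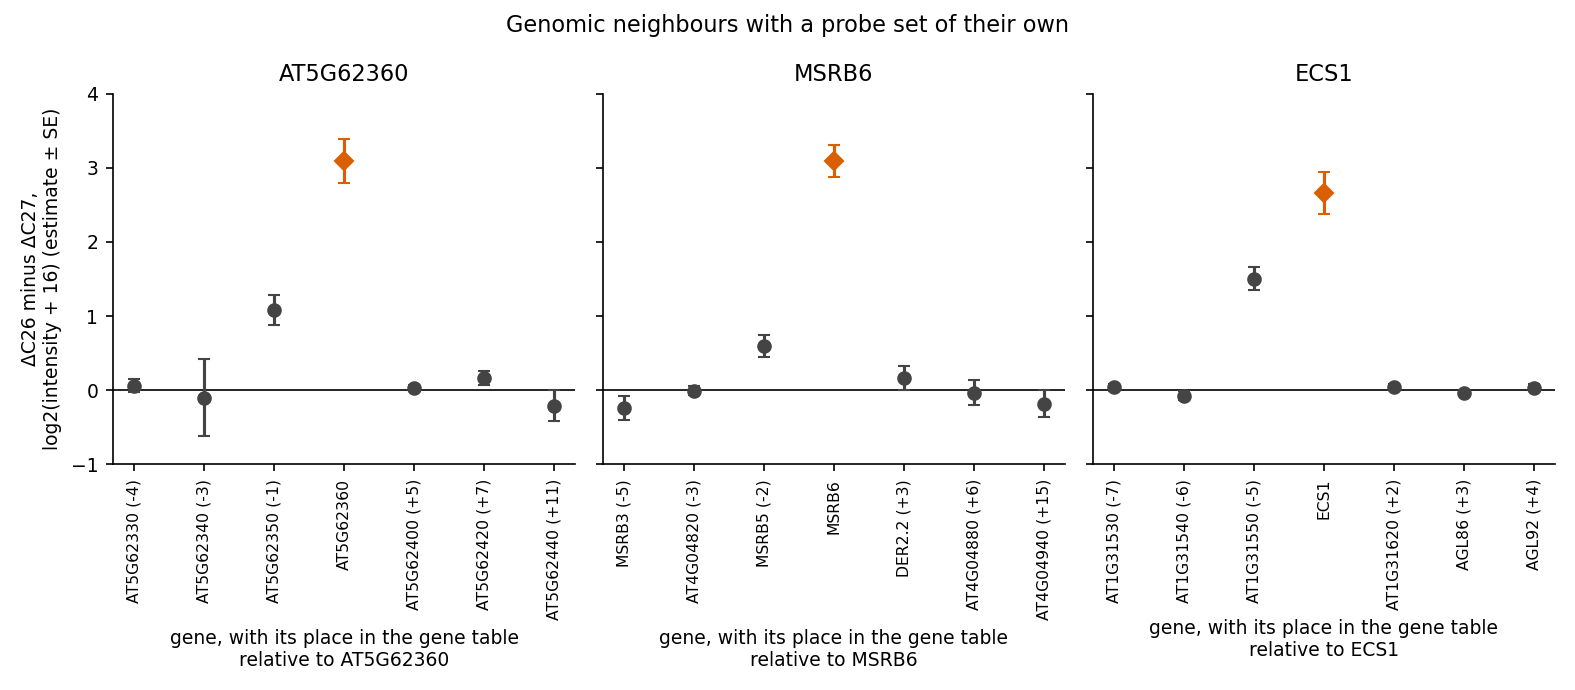
Difference ΔC26 minus ΔC27 on the scale of log2(intensity + 16) for AT5G62360, MSRB6, ECS1 and the 3 measured genes on each side of each, in gene order, without genomic distances. AT5G62350 and AT1G31550 stand out among the neighbours at 1.08 and 1.51, while the members are at 3.09, 3.09 and 2.66.

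Relatives of AT5G62360 and MSRB6 in the same families were described by counts. A gene was measured if a probe set was annotated with it alone, so genes on the 8730 probe sets without a named gene are missing. The lists held 19 inhibitors, 23 methylesterases and 14 reductases, of which 11, 10 and 5 were measured, AT5G62360 and MSRB6 included. The counts thus cover part of each family. Of 10 measured pectin methylesterase and invertase inhibitor genes other than AT5G62360, 2 passed in ΔC26 against ΔC27, 1 in each direction (limma, 2.95% of all probe sets), with a median difference of 0.36, against -0.001 over all probe sets. AT5G62350 was higher in ΔC26, as given above. AT2G01610 was lower, at 30.5 and 32.6 in ΔC26 and 107 and 64.6 in ΔC27, with 41.2 and 27.4 in FL3 and control arrays between 12.8 and 23.2. Its difference was -1.07 ± 0.23 (limma, adjusted p = 0.042), and its call ended when any 1 of 9 of the 10 arrays was left out (adjusted p from 0.056 to 0.15). In ΔC27 against the controls 3 of the 10 passed, where 16.7% of all probe sets did. These were AT2G01610, higher by 1.60 ± 0.20, and AT4G25260 and AT1G14890, lower by log2 differences of -0.78 ± 0.15 and -1.13 ± 0.18 (limma, adjusted p = 0.0011, 0.0073 and 0.0035). All 3 leaned the same way in FL3 and ΔC26, at 0.61 and 0.54, -0.34 and -0.40, and -0.60 and -0.46, without a call. AT1G14890 had 169 and 173 in FL3, 193 and 187 in ΔC26 and 83.8 and 151 in ΔC27. Its control arrays had 230 to 290, above every TaSIN array. In FL3 and ΔC26 against the controls 0 passed by limma, where 2.69% and 2.71% of all probe sets did. An unadjusted p under 0.05 was found for 4 and 5 of the 10, against 13.2% and 18.3% of all probe sets. In VC against Col-0 0 passed, where 0.0264% of all probe sets did. There 1 had an unadjusted p under 0.05, against 7.01% of all probe sets.

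Of the 10 measured pectin methylesterases, the enzymes that such inhibitors block, 0 passed in ΔC26 against ΔC27 by limma, where 2.95% of all probe sets did. An unadjusted p under 0.05 was found for 2 of them, and for 17.7% of all probe sets. PMEPCRF was lower than in the controls in FL3 by -0.58 ± 0.12, in ΔC26 by -0.59 ± 0.12 and in ΔC27 by -0.43 ± 0.12 on the log2 scale (limma, adjusted p = 0.032, 0.036 and 0.033). It had 121 and 112 in FL3, 123 and 109 in ΔC26 and 125 and 136 in ΔC27, against 169 and 183 in VC and 193 and 184 in Col-0. All 6 TaSIN arrays were below the 4 control arrays. These calls ended without 6, 7 and 8 of the 10 arrays in FL3, ΔC26 and ΔC27, 1 left out at a time. AT5G09760 rose in ΔC27 by 0.97 ± 0.18 (adjusted p = 0.0055). In FL3, ΔC26 and ΔC27 against the controls, 2.69%, 2.71% and 16.7% of all probe sets passed.

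The 4 measured methionine sulfoxide reductases other than MSRB6 had 0 past the threshold by limma in each of the 5 contrasts. Of all probe sets 0.0264% to 16.7% passed, so with 4 genes nothing is read from this count. At an unadjusted p under 0.05 were 0 to 2, where 7.01% to 29.1% of all probe sets were. The 2 were MSRB5 and MSRB9 in ΔC26 against the controls, where the share of all probe sets was 18.3%. Their differences in ΔC26 minus ΔC27 ran from -0.24 to 0.60, against 3.09 for MSRB6. MSRB9 was higher than in the controls by 0.61 in ΔC26 and by 0.68 in ΔC27, and neither passed (limma, adjusted p = 0.17 and 0.061). Whether the MSRB6 and AT5G62360 probe sets also read related genes was not tested. Of 19 listed salicylate and wall defence genes only GRX480, a glutaredoxin, had a named probe set. Its log2 difference of -0.29 in ΔC26 minus ΔC27 did not pass (limma, adjusted p = 0.84).

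**Figure D5:**
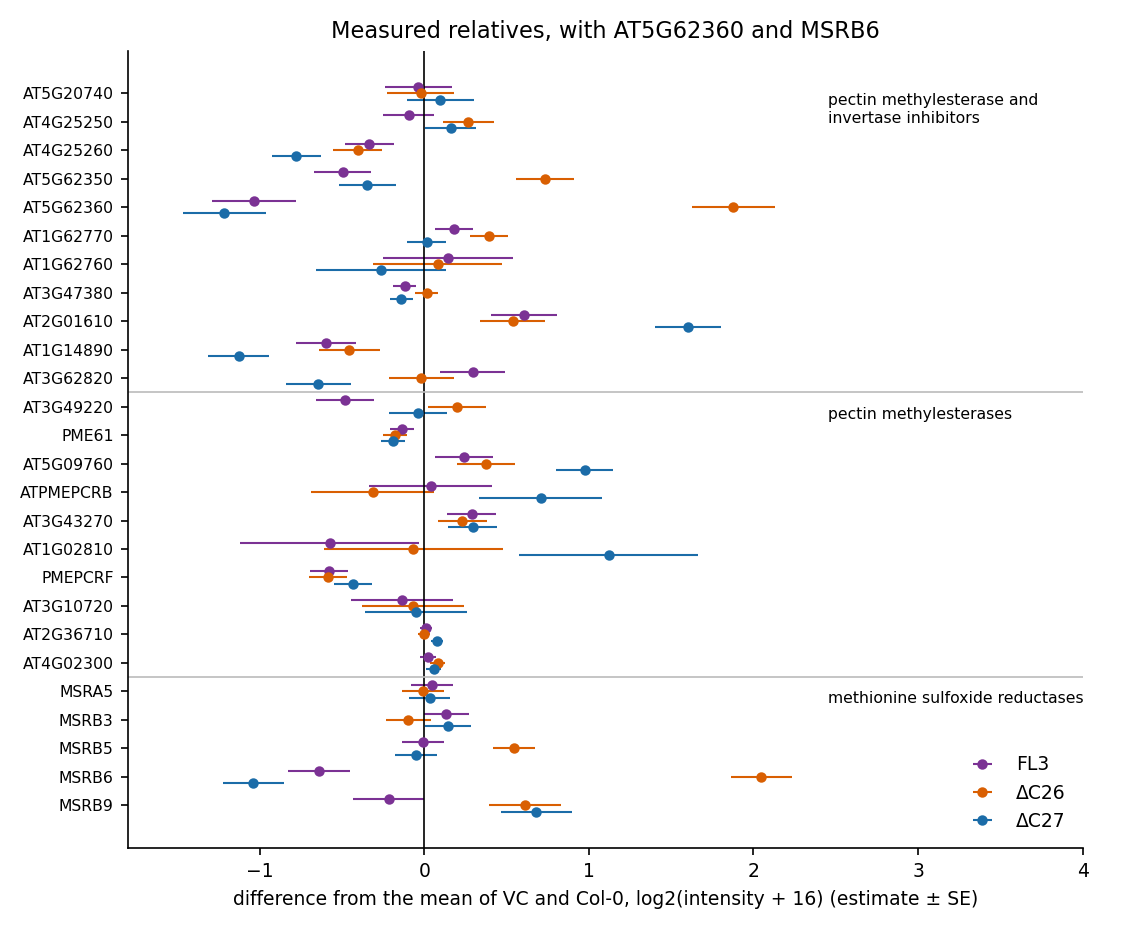
Difference of FL3, ΔC26 and ΔC27 from the mean of VC and Col-0 on the scale of log2(intensity + 16) for the measured inhibitors, pectin methylesterases and methionine sulfoxide reductases, AT5G62360 and MSRB6 among them, with error bars of 1 SE. AT5G62360 and MSRB6 stand at 1.88 and 2.05 in ΔC26, where MSRB9 has 0.61 and AT5G62350 0.73, and AT2G01610 stands at 1.60 in ΔC27.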

How the data were processed

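The authors deposited a linear intensity for every probe set on every array. The scale was inferred from the values (3.68 to 12648). Per the labels, RNA was extracted with Trizol and labelled with biotin after amplification. Which software, background correction and normalization the authors applied was not stated. Of 22810 probe sets, 64 controls were left out. The platform annotation gave 1 gene for 13513 of the 22746 tested, several for 503 and none for 8730, and 13436 matched a TAIR10.1 locus in RefSeq's table, used for names and gene order alone.

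Values were analysed as log2(intensity + 16). In R 4.3.3, limma 3.58.1 took 1 mean per line from all 10 arrays (5 residual degrees of freedom, intensity trend). Tests were two-sided, with Benjamini-Hochberg adjustment across all probe sets in each of 5 contrasts and a threshold of 0.05. Controls are the mean of VC and Col-0. The number of arrays limits the precision. Tested on simulated data for FL3 against the controls (22746 probe sets), the fit called 76 of 100 probe sets given a log2 change of 1 and 91 of 100 given 2, with 8 false calls. The changes were added on the log2(intensity + 16) scale and only to brighter probe sets, so recovery in dim ones was not measured. Tables were read with pandas 2.3.3 in Python 3.11.15 and figures drawn with matplotlib 3.10.9.

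The members and lists were chosen with earlier results of these data known. The genes named were the 3 members, the 5 most correlated with each, their neighbours and up to 4 of each list past the threshold per contrast. Alternatives were a replicate block, quantile normalization, other pseudocounts (1 and 64), a filter on dim probe sets, no variance trend, each control alone and each array left out.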

Additional observations from a re-analysis of the deposited data

Results flagged for a closer look

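The test of ΔC26 against ΔC27 gave a difference between lines of the same transgene form in 3 genes of the lists and neighbours. AT1G31550, near ECS1, was higher in ΔC26 by 1.51 on the log2 scale, and AT5G62350, next to AT5G62360, by 1.08. AT2G01610, an inhibitor-family gene, had a log2 difference of -1.07. Their array values and adjusted p are given in the report.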

How the results depend on the processing

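The replicate numbers did not pair the arrays: differences between replicates 1 and 2 correlated at -0.20 to 0.086 over 10 pairs of lines. With a replicate block the FL3 differences were -1.04 for AT5G62360, -0.64 for MSRB6 and -0.32 for ECS1, and none of the 3 passed. The block changed list counts as follows: inhibitors 1 called in ΔC26 and 1 in ΔC26 against ΔC27, methylesterases 0 in FL3, 0 in ΔC26 and 1 in ΔC27, neighbours 1 in ΔC26, each against the controls unless stated. With VC alone as control the FL3 difference was -1.44 for AT5G62360 (passed) and 0.0048 for ECS1 (sign turned), and leaving out 1 array gave -1.28 to -0.79 and -0.70 to 0.047. MSRB6 in FL3 passed under no setting tried. The cause of these changes was not tested, and the share of all probe sets passing with the block is not given here.

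The described differences kept their direction, apart from that of ECS1 in ΔC26 minus controls (0.27 with VC alone, -0.19 to 0.062 with 1 array left out). In ΔC26 minus controls AT5G62360 had 1.47 with VC alone and 2.28 with Col-0 alone, and MSRB6 had 2.37 at a pseudocount of 1, 1.46 at 64 and 1.80 to 2.30 with 1 array left out. In ΔC27 minus controls AT5G62360 had -0.84 at a pseudocount of 64, -1.62 with VC alone and -0.81 with Col-0 alone, and MSRB6 had -1.64 at 1 and -0.49 at 64. In ΔC26 minus ΔC27 AT5G62360 had 2.42 at 64, and MSRB6 had 4.01 at 1, 1.96 at 64 and 2.84 to 3.34 with 1 array left out. The pseudocount sets the size of these differences at low signal.

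Counts of list genes were small and changed as follows. The share of all probe sets passing under each alternative is not given here, so these changes are not read as results about the lists. With VC alone the ΔC27 calls of AT4G25260, AT5G09760 and AT5G62440 ended (limma, adjusted p = 0.052, 0.055 and 0.071). The PMEPCRF calls in FL3, ΔC26 and ΔC27 ended with VC alone and with the replicate block. They also ended with Col-0 alone in FL3 and ΔC26, and with quantile normalization in ΔC27. The call of AT2G01610 in ΔC26 against ΔC27 ended with the block, a pseudocount of 1 or no variance trend. Quantile normalization gave 1 reductase and 1 methylesterase in ΔC27. A pseudocount of 1 gave 1 inhibitor in ΔC26 against ΔC27. Without the dimmest probe sets there were 1 reductase, 1 inhibitor and 2 neighbours in ΔC26. No variance trend gave 1 reductase and 1 neighbour in ΔC26, 1 neighbour in FL3 and 1 inhibitor in ΔC26 against ΔC27. VC alone gave 1 reductase in ΔC26, 0 methylesterases in FL3, ΔC26 and ΔC27, and 1 neighbour each in ΔC26 and ΔC27. Col-0 alone gave 0 methylesterases in FL3 and ΔC26. With 1 array left out, counts ran over 0 to 1 reductase in ΔC26 and in ΔC27. Inhibitors ran over 0 to 1 in FL3 and in ΔC26 and 0 to 4 in ΔC26 against ΔC27. Methylesterases ran over 0 to 1 in FL3, 0 to 2 in ΔC26, 1 to 4 in ΔC27 and 0 to 3 in ΔC26 against ΔC27. Neighbours ran over 0 to 2 in ΔC26, 1 to 3 in ΔC27 and 1 to 2 in ΔC26 against ΔC27. With 1 gene measured, no count was made for the defence list.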

Other observations

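In 3 pectin methylesterase genes ΔC27 replicate 1 had far more signal than ΔC27 replicate 2. AT1G02810 had 221 and 31.5, ATPMEPCRB 76.2 and 9.51, and AT3G10720 228 and 76.2. In all 3 genes the value in replicate 1 was above those of all 8 arrays of the other lines. ΔC27 had the widest replicate spread over all probe sets (SD 0.415), and the share of all probe sets with such a gap was not counted. The gap is therefore not read as a result about methylesterases, and its cause was not tested.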
